A study of Homo sapiens with 8 samples.

Results

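Pericellular proteases, their inhibitors and ectoenzymes act at and just outside the plasma membrane, and 9 genes of this kind were examined out of 18404 measured: the ectoenzyme genes MME and NT5E, the protease genes MMP1, MMP2, MMP14 and PLAT, the protease receptor gene PLAUR, and the inhibitor genes SERPINE2 and TIMP3. They were taken as a named list of genes, on which MME and NT5E were chosen by their measured values, for a large change between groups of these arrays. The values of MME and NT5E are therefore given as a description with no test, while the other 7 were tested as part of the fit over all 18404 genes. The whole list was drawn up with earlier results of these data known, so counts over the 7 are a description. For each gene the probe set with exactly 1 gene symbol and the highest mean over the arrays was used.

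The cells were COLO829, an established human melanoma line with an activating mutation of the kinase BRAF. They carried the pGIPZ vector with a hairpin RNA against MITF, the master transcription factor of the melanocyte lineage, or with a scrambled hairpin, were selected with puromycin for 2 days, and then received PLX4032 at 1 µM (vemurafenib, a drug that blocks mutant BRAF) or the solvent DMSO for 24 h. RNA of 8 samples, labelled A and B in each of 4 groups, was hybridised to 1 Affymetrix Human Gene 1.0 ST array each: MITF hairpin with PLX4032, MITF hairpin with DMSO, scrambled hairpin with PLX4032 and scrambled hairpin with DMSO. The labels name 1 hairpin against MITF and 1 cell line and do not state whether A and B came from separate cultures. The p-values thus measure no more than the spread among these samples, and that spread may be technical. All groups had been infected with a hairpin vector and selected, and no cells without a hairpin were analysed here.

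Proteases of the cell surface cut matrix proteins, growth factors and each other, and their reach is set by membrane anchors, receptors and inhibitors. Matrix metalloproteinases are made as inactive precursors: MMP14, which is anchored in the membrane, activates pro-MMP2, and TIMP proteins block the active enzymes. The plasminogen activators PLAT and urokinase turn plasminogen into plasmin, with urokinase held at the surface by its receptor PLAUR and both activators inhibited by serpins such as SERPINE2. In melanoma these systems are known from work on invasion, and NT5E (CD73) from work on adenosine, which dampens immune cells.

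The arrays of a group resembled each other closely, with Pearson correlations across genes of 0.99734 to 0.99844 within groups and 0.9628 to 0.9844 between groups. All levels are log2 intensities, on which 1 unit is a doubling, and changes are differences of log2 means ± SE from the limma fit (n = 2 arrays per group), with p adjusted by Benjamini-Hochberg over 18404 genes and a threshold of 0.05. With the hairpin MITF changed by -0.93 in DMSO (adjusted p = 8.28e-06) and -0.76 in PLX4032 (adjusted p = 3.02e-05). PLX4032 itself raised MITF, with limma changes of 0.39 in scrambled and 0.56 in shMITF cells (adjusted p of 0.00319 and 0.000239). With both perturbations MITF stood at -0.38 against scrambled DMSO cells (adjusted p = 0.00254). Under PLX4032 DUSP6, a feedback phosphatase of the BRAF pathway, changed by -2.68 in scrambled cells (adjusted p = 6.06e-09). The hairpin also raised DUSP6, by 0.46 in DMSO and 0.59 in PLX4032 (adjusted p of 0.00176 and 0.000292). Each perturbation thus also moved the gene that checks the other. The mean of 6 measured melanocytic markers lay between 9.25 and 11.12 on the 8 arrays, while those of 7 fibroblast markers (5.88 to 6.09), 6 leukocyte markers (5.23 to 5.46), 7 keratinocyte markers (4.49 to 4.57) and 7 endothelial markers (5.06 to 5.21) were lower. The fibroblast mean, given because fibroblasts make many of these enzymes, was 6.08 to 6.09 in shMITF PLX4032 cells, 5.93 in both shMITF DMSO arrays, 5.88 to 5.90 in scrambled PLX4032 cells and 5.96 to 5.98 in scrambled DMSO cells. Such values have no zero and detection calls were not used, so the part of other cells in the values below was not tested. Whether the arrays of 2 groups overlap is stated below as a description and is no test. The share of all genes whose groups lie apart was not counted.

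**Figure D1:**
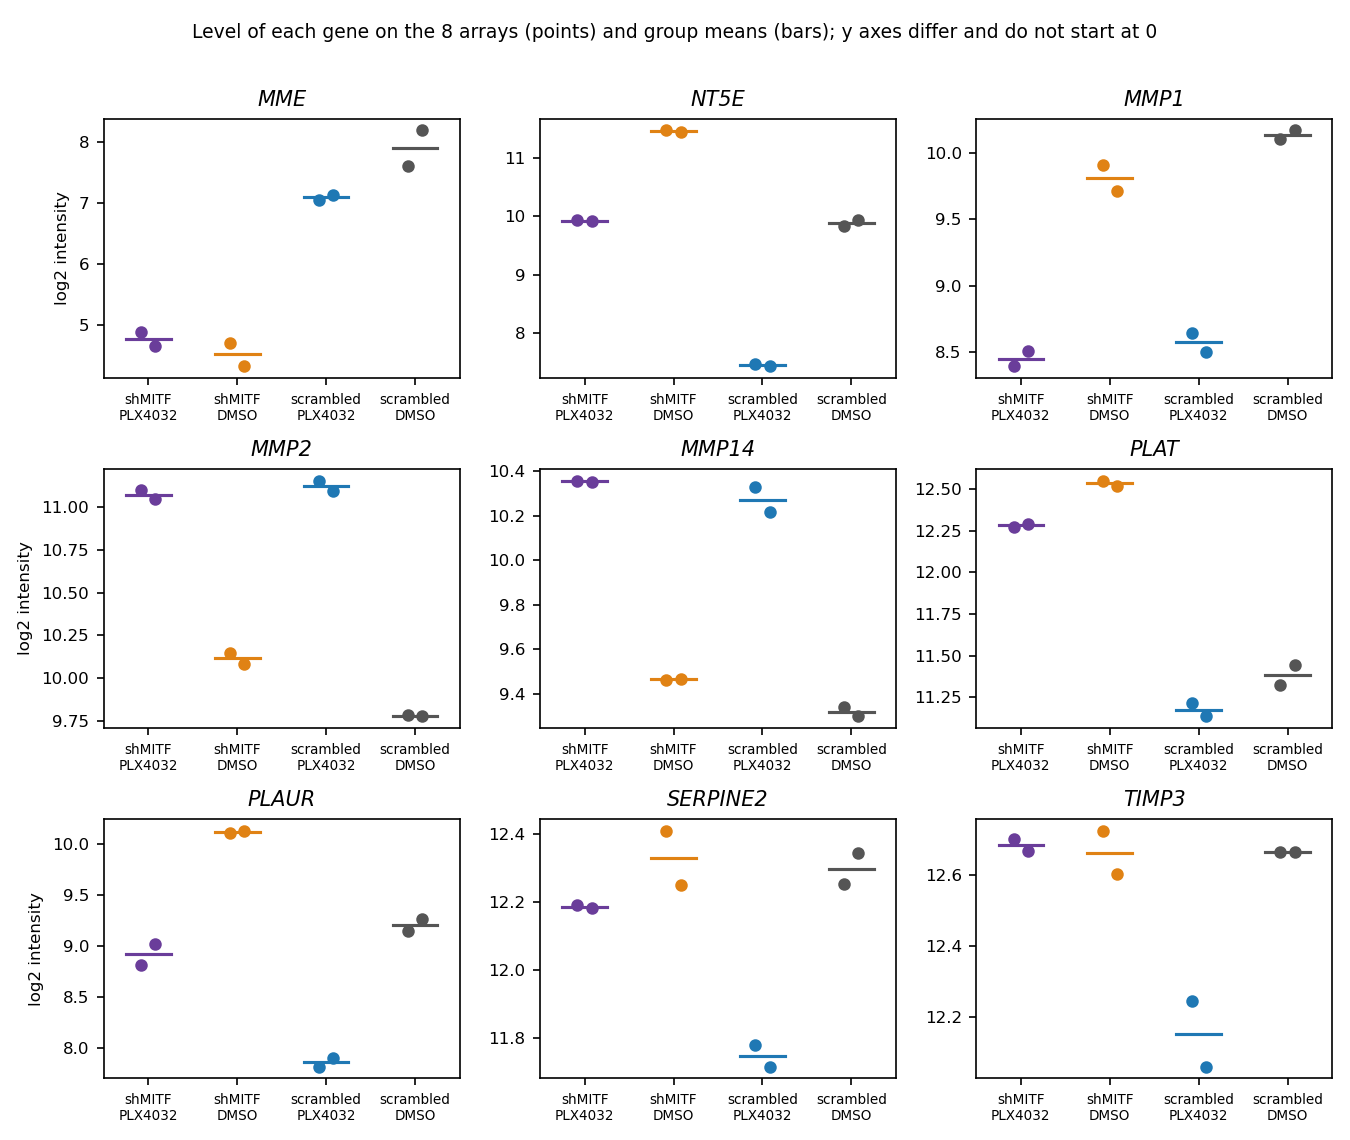
Log2 intensity (y axes, a separate range per gene, not starting at 0) of the 9 genes on the 8 arrays. Points are arrays A and B, bars are group means, and the 4 groups run along each x axis. MME separates by hairpin, MMP2 and MMP14 by drug, and NT5E and PLAUR by both, while TIMP3 is set apart in scrambled PLX4032 cells.

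MME encodes neprilysin (CD10), a surface metallopeptidase that degrades small peptides, and its level was far lower in MITF knockdown cells. It read 4.89 and 4.65 in shMITF PLX4032 cells, 4.71 and 4.32 in shMITF DMSO cells, 7.05 and 7.14 in scrambled PLX4032 cells, and 7.62 and 8.20 in scrambled DMSO cells. The 4 knockdown arrays were all below the 4 scrambled arrays, and the knockdown groups overlapped each other. The log2 change on knockdown was -3.39 ± 0.18 in DMSO, which is 10.5-fold lower, and -2.33 ± 0.18 in PLX4032, which is 5.01-fold lower. PLX4032 gave a change of -0.81 ± 0.18 in scrambled cells, with both drug arrays under both solvent arrays, and of 0.26 ± 0.18 in knockdown cells (95% interval -0.13 to 0.65). In knockdown cells MME lay around the first quartile of all gene values on an array, which was 4.57 to 4.79, where signal over background is unknown. In RNA from whole cultures, less mRNA per cell and fewer cells that express a gene cannot be told apart.

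The promoter of MME is shown because MITF and related factors bind E-box motifs with a flanking T. RefSeq promoter windows on GRCh38.p14 were matched by symbol for 6 of the 9 genes, with several windows where a gene has several starts, and the 250 bases before each start were searched on both strands. The motifs were 3 E-box forms with that T, namely TCATGTG, known as the M-box core, the form TCACATG, with the flanking T on the other side of the same core, and the palindromic core written TCACGTG, and beside them the AP-1 motif, TGANTCA. Promoters of MMP1, MMP2 and PLAT were not analysed here. Of 35114 windows of all genes, 2.52% held TCATGTG and 2.9% held the form TCACATG, while TCACGTG stood in 3.31% of them and the AP-1 motif in 6.57%. The first of the 4 MME windows, chr3:155079422-155079671 on the plus strand, held TCACATG from 144 bases before the start, overlapped by TCATGTG on the opposite strand, and the capitals below, written 5′ to 3′, mark the 8 bases that the 2 matches cover together:
MME: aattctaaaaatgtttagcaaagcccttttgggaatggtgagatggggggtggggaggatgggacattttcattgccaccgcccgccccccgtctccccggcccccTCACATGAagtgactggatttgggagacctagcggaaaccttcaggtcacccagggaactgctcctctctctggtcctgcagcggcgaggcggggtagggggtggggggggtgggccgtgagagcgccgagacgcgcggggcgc
The other 3 MME windows held none of the 4 motifs. A match describes letters in a window and is not a measured site.

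NT5E, the ectoenzyme CD73 that splits extracellular AMP into adenosine, was higher in knockdown cells and lower under PLX4032. It read 9.94 and 9.92 in shMITF PLX4032 cells, 11.48 and 11.45 in shMITF DMSO cells, 7.47 and 7.43 in scrambled PLX4032 cells, and 9.83 and 9.94 in scrambled DMSO cells. Knockdown cells were above scrambled cells and drug-treated cells below solvent-treated ones wherever the other factor was held fixed. The log2 change on knockdown was 1.58 ± 0.080 in DMSO (2.98-fold higher) and 2.48 ± 0.080 in PLX4032 (5.58-fold higher). Under PLX4032 it was -2.44 ± 0.080 in scrambled cells (5.42-fold lower) and -1.53 ± 0.080 in knockdown cells (2.90-fold lower). With both perturbations NT5E differed from scrambled DMSO cells by 0.04 ± 0.080 (95% interval -0.13 to 0.22), and these arrays overlapped. The NT5E window held none of the 4 motifs.

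Among the proteases, the collagenase MMP1 went down under PLX4032. MMP1, which cuts fibrillar collagens, read 8.39 and 8.51 in shMITF PLX4032 cells, 9.90 and 9.72 in shMITF DMSO cells, 8.64 and 8.50 in scrambled PLX4032 cells, and 10.10 and 10.17 in scrambled DMSO cells. All 4 drug arrays were below all 4 solvent arrays, and the drug groups overlapped each other. The PLX4032 change was -1.56 ± 0.095 in scrambled cells (2.95-fold lower, limma adjusted p = 5.68e-07) and -1.36 ± 0.095 in knockdown cells (adjusted p = 9.80e-07). On knockdown in DMSO MMP1 fell by 0.32 ± 0.095 (adjusted p = 0.0237), a call that was lost without shMITF DMSO array B (-0.23, adjusted p = 0.197) or without scrambled DMSO array B (-0.29, adjusted p = 0.111). In PLX4032 the knockdown change of -0.12 ± 0.095 did not pass (adjusted p = 0.384, 95% interval -0.33 to 0.09). Where 1 array is left out, the remaining array of its group is assumed to vary like those of the other groups.

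The gelatinase MMP2 and the membrane-type metalloproteinase MMP14 moved the opposite way, up under PLX4032. MMP2, which cuts type IV collagen and denatured collagen, read 11.10 and 11.05 in shMITF PLX4032 cells, 10.15 and 10.09 in shMITF DMSO cells, 11.16 and 11.09 in scrambled PLX4032 cells, and 9.78 and 9.78 in scrambled DMSO cells. MMP14 read 10.36 and 10.35 in shMITF PLX4032 cells, 9.46 and 9.47 in shMITF DMSO cells, 10.33 and 10.22 in scrambled PLX4032 cells, and 9.34 and 9.30 in scrambled DMSO cells. For both genes every drug array was above every solvent array. MMP2 rose by 1.34 ± 0.079 in scrambled cells (2.54-fold, limma adjusted p = 4.13e-07) and by 0.96 ± 0.079 in knockdown cells (1.94-fold, adjusted p = 3.39e-06). MMP14 rose by 0.95 ± 0.080 in scrambled cells (1.94-fold, adjusted p = 5.03e-06) and by 0.89 ± 0.080 in knockdown cells (1.85-fold, adjusted p = 6.33e-06). The MMP14 groups were all apart from each other, while the drug groups of MMP2 overlapped. Knockdown in DMSO raised MMP2 by 0.34 ± 0.079 (adjusted p = 0.00739), which no longer passed without shMITF DMSO array A (0.31, adjusted p = 0.0627), and gave 0.15 ± 0.080 for MMP14 (adjusted p = 0.183), which among the alternatives run passed only where quantile normalization was repeated (0.22, adjusted p = 0.0380). In PLX4032 the knockdown changes were -0.05 for MMP2 (adjusted p = 0.689) and 0.08 for MMP14 (adjusted p = 0.491). The MMP14 window held none of the 4 motifs.

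PLAT, tissue plasminogen activator, followed the hairpin. It read 12.28 and 12.29 in shMITF PLX4032 cells, 12.55 and 12.52 in shMITF DMSO cells, 11.22 and 11.13 in scrambled PLX4032 cells, and 11.32 and 11.44 in scrambled DMSO cells. The 4 knockdown arrays were all above the 4 scrambled arrays, with no overlap between any groups. Knockdown raised PLAT by 1.15 ± 0.082 in DMSO (2.22-fold, limma adjusted p = 2.14e-06) and by 1.11 ± 0.082 in PLX4032 (2.16-fold, adjusted p = 1.99e-06). The drug changes were small: -0.25 ± 0.082 in knockdown cells (adjusted p = 0.0350) and -0.21 ± 0.082 in scrambled cells (adjusted p = 0.0768). The first of these did not pass without any 1 of the 4 knockdown arrays (adjusted p 0.0950 to 0.159), and the second passed when arrays were centred on their median (adjusted p = 0.0347), without the dimmest genes (0.0408) or with a trended and robust prior (0.0203).

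PLAUR, the surface receptor of urokinase, responded to both factors in opposite directions, as NT5E did. It read 8.82 and 9.02 in shMITF PLX4032 cells, 10.11 and 10.13 in shMITF DMSO cells, 7.82 and 7.90 in scrambled PLX4032 cells, and 9.15 and 9.26 in scrambled DMSO cells, and no 2 groups overlapped. Knockdown raised PLAUR by 0.91 ± 0.093 in DMSO (1.88-fold, limma adjusted p = 2.83e-05) and by 1.06 ± 0.093 in PLX4032 (2.09-fold, adjusted p = 7.54e-06). Under PLX4032 it fell by 1.35 ± 0.093 in scrambled cells (2.54-fold lower, adjusted p = 1.36e-06) and fell by 1.20 ± 0.093 in knockdown cells (2.30-fold lower, adjusted p = 2.15e-06). With both perturbations PLAUR was lower than in scrambled DMSO cells, with a change of -0.28 ± 0.093 (adjusted p = 0.0264). That call was lost without shMITF PLX4032 array A (-0.18, adjusted p = 0.209) or without scrambled DMSO array B (-0.23, adjusted p = 0.141). The PLAUR promoter is shown because AP-1, which acts downstream of the BRAF pathway, binds TGANTCA. Its window, chr19:43670170-43670419 on the minus strand, held 1 such match from 186 bases before the start, in capitals, and none of the E-box forms:
PLAUR: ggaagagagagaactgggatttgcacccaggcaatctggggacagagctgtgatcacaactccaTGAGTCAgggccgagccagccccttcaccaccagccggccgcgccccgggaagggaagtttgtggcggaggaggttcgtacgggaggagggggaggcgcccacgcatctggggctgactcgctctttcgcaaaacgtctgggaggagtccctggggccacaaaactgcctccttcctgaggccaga

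The inhibitor SERPINE2, protease nexin-1, which blocks thrombin and plasminogen activators, was lower under PLX4032 in scrambled cells. SERPINE2 read 12.19 and 12.18 in shMITF PLX4032 cells, 12.41 and 12.25 in shMITF DMSO cells, 11.78 and 11.72 in scrambled PLX4032 cells, and 12.25 and 12.34 in scrambled DMSO cells. The scrambled PLX4032 arrays were below all others, and the pair of solvent groups overlapped. Under PLX4032 SERPINE2 fell by 0.55 ± 0.086 in scrambled cells (1.47-fold lower, limma adjusted p = 0.000481), and its change was -0.14 ± 0.086 in knockdown cells (adjusted p = 0.250). Knockdown raised it by 0.44 ± 0.086 in PLX4032 (1.36-fold, adjusted p = 0.00268) and gave 0.03 ± 0.086 in DMSO (adjusted p = 0.809). The SERPINE2 promoter is shown for its number of E-box letters: the first of its 2 windows, chr2:224031479-224031728 on the minus strand, held TCACATG 5 times and the palindromic form TCACGTG once, in capitals:
SERPINE2: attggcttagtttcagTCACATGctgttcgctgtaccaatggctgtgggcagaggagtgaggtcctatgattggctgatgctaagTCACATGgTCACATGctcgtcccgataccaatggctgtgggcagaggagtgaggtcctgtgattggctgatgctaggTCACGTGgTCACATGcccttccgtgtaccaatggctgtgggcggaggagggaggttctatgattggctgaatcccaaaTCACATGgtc
At least 6 matches to the 3 E-box forms stood in 7 of 35114 windows (0.0199%). The window holds repeated stretches, with a run of 17 identical bases in 3 copies whose starts are 77 bases apart, so its matches are not independent of each other. The other SERPINE2 window held none of the 4 motifs.

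TIMP3, a matrix-bound inhibitor of metalloproteinases and of ADAM proteases, had 2 probe sets that disagreed. On the brighter one, which was used, it read 12.70 and 12.67 in shMITF PLX4032 cells, 12.72 and 12.60 in shMITF DMSO cells, 12.24 and 12.06 in scrambled PLX4032 cells, and 12.66 and 12.66 in scrambled DMSO cells. Only the scrambled PLX4032 arrays stood apart. Under PLX4032 TIMP3 fell by 0.51 ± 0.090 in scrambled cells (1.42-fold lower, limma adjusted p = 0.00106), and its change was 0.02 ± 0.090 in knockdown cells (adjusted p = 0.894). Knockdown raised it by 0.53 ± 0.090 in PLX4032 (adjusted p = 0.000990), and its change was -0.0008 ± 0.090 in DMSO (adjusted p = 0.996). The second probe set read 9.59 and 9.35 in shMITF PLX4032 cells, 9.50 and 9.65 in shMITF DMSO cells, 9.48 and 9.28 in scrambled PLX4032 cells, and 9.16 and 9.40 in scrambled DMSO cells. On it the PLX4032 change in scrambled cells was 0.10 ± 0.13 (adjusted p = 0.640), no change in any comparison passed, and with the mean of both probe sets the change was -0.20 (adjusted p = 0.125). The fall was thus seen on 1 of the 2 probe sets. The TIMP3 window held none of the 4 motifs.

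**Figure D2:**
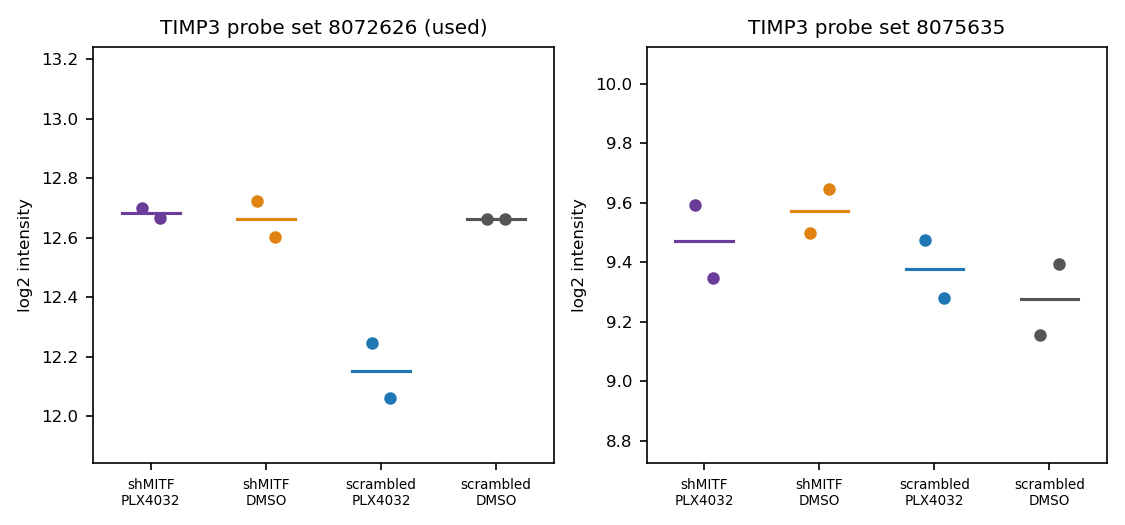
Log2 intensity (y axes of equal span, not starting at 0) of the 2 TIMP3 probe sets on the 8 arrays, with group means as bars and the 4 groups along the x axis. On probe set 8072626 both scrambled PLX4032 arrays (12.24 and 12.06) lie below all others, and on probe set 8075635 they lie among them.

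Read by comparison, MITF knockdown in DMSO raised PLAT, PLAUR and MMP2 and lowered MMP1 among the 7 tested genes, so 3 were called higher and 1 lower. Of all 18404 genes, 33.2% were called, 14.4% higher and 18.8% lower, and the median change was 0.15 for the 7 and 0.02 for all genes. Without shMITF DMSO array B, 3723 genes were called in place of 6114. Knockdown in PLX4032 raised PLAT, PLAUR, SERPINE2 and TIMP3 and lowered none, 4 of 7, where 28.5% of all genes were called, 13.5% higher and 15.0% lower. The medians there were 0.44 for the 7 and 0.02 for all genes. Both counts, 4 of 7, stood above the share of all genes, as a description of 7 chosen genes. As the choice was made with earlier results of these data known, such an excess can follow from it and was not tested.

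Under PLX4032 in scrambled cells 6 of the 7 were called, with MMP2 and MMP14 higher and MMP1, PLAUR, SERPINE2 and TIMP3 lower, where 34.1% of all genes were called, 17.3% higher and 16.8% lower. The median change was -0.51 for the 7 and 0.05 for all genes. In knockdown cells 5 were called, MMP2 and MMP14 higher and MMP1, PLAUR and PLAT lower, where 33.7% of all genes were called, 18.6% higher and 15.1% lower. The medians there were -0.14 for the 7 and 0.04 for all genes.

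**Figure D3:**
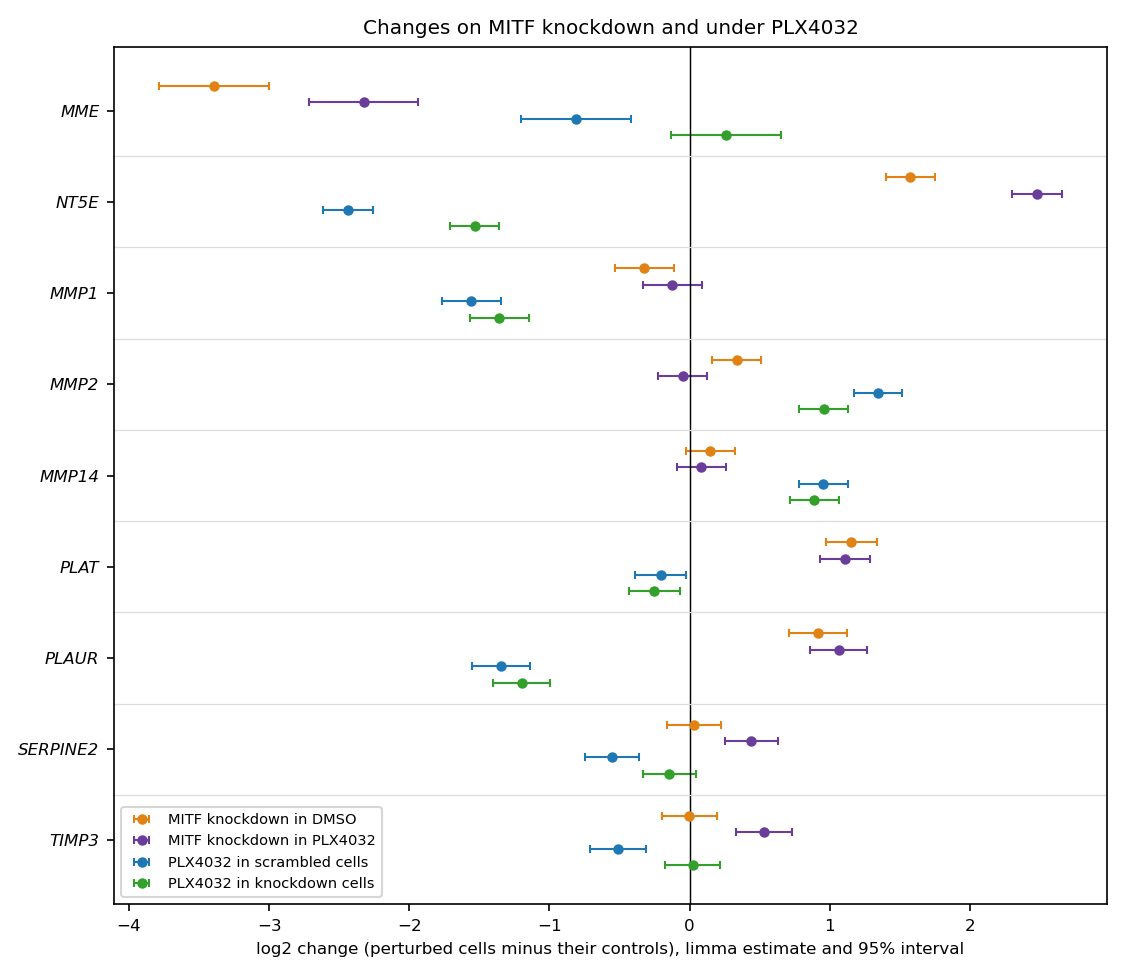
Log2 change with its 95% interval from limma (x axis) of the 9 genes (y axis) in 4 comparisons, marked by colour; MME and NT5E are drawn as a description. Knockdown changes of PLAT lie at 1.15 in DMSO and 1.11 in PLX4032, and PLX4032 changes of MMP2, at 0.96 and 1.34, lie opposite to those of MMP1, at -1.36 and -1.56.

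Both perturbations together were set against scrambled DMSO cells, which are also the controls of the DMSO knockdown comparison and of the drug in scrambled cells, so these comparisons share arrays. MMP2 was 1.29 ± 0.079 higher (2.45-fold, limma adjusted p = 1.94e-07), MMP14 1.04 ± 0.080 higher (2.05-fold, adjusted p = 1.16e-06) and PLAT 0.90 ± 0.082 higher (1.87-fold, adjusted p = 4.63e-06). MMP1 was lower, with a change of -1.68 ± 0.095 (3.21-fold lower, adjusted p = 1.13e-07), as was PLAUR with the change given above. SERPINE2 (-0.11, adjusted p = 0.307) and TIMP3 (0.02, adjusted p = 0.866) did not pass, with 95% intervals of -0.30 to 0.08 and -0.18 to 0.22. MME stood at a change of -3.14, 8.79-fold lower. The 5 called of 7 compare with 48.6% of all genes called, 27.1% higher and 21.5% lower, and the median change was 0.02 for the 7 and 0.08 for all genes.

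Whether the response to PLX4032 differed between knockdown and scrambled cells was tested as the interaction, the drug change in knockdown cells minus that in scrambled cells. Of the 7 genes, TIMP3 differed by 0.53 ± 0.13 (limma adjusted p = 0.0195) and MMP2 by -0.39 ± 0.11 (adjusted p = 0.0466), 1 in each direction, where 11.8% of all genes were called, 6.97% higher and 4.85% lower. The median difference was 0.15 for the 7 and 0.0013 for all genes. Neither call was firm. That of MMP2 was lost whichever array was left out (-0.42 to -0.36, adjusted p 0.0692 to 0.161), and that of TIMP3 without shMITF DMSO array B (0.47, adjusted p = 0.0984), without scrambled PLX4032 array B (0.44, adjusted p = 0.0770) and with the mean of its probe sets (0.16, adjusted p = 0.521).

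SERPINE2 differed by 0.41 ± 0.12 between knockdown and scrambled cells and just missed the threshold (adjusted p = 0.0543). It passed when arrays were centred on their median (adjusted p = 0.0475), without the dimmest genes (0.0254) and with a trended and robust prior (0.00648). For MMP1 (0.20 ± 0.14, adjusted p = 0.418), PLAUR (0.15 ± 0.13, adjusted p = 0.557), MMP14 (-0.06 ± 0.11, adjusted p = 0.793) and PLAT (-0.05 ± 0.12, adjusted p = 0.867) no difference was detected with 2 arrays per group. Their 95% intervals were -0.10 to 0.50, -0.14 to 0.44, -0.31 to 0.18 and -0.30 to 0.21. The described differences of MME and NT5E were 1.07 ± 0.25 and 0.90 ± 0.11: the NT5E change under the drug was the smaller one in knockdown cells, and the MME arrays of knockdown cells overlapped with and without the drug. MME was dim in knockdown cells, with little room for a fall there, so no difference in response is read from its value.

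**Figure D4:**
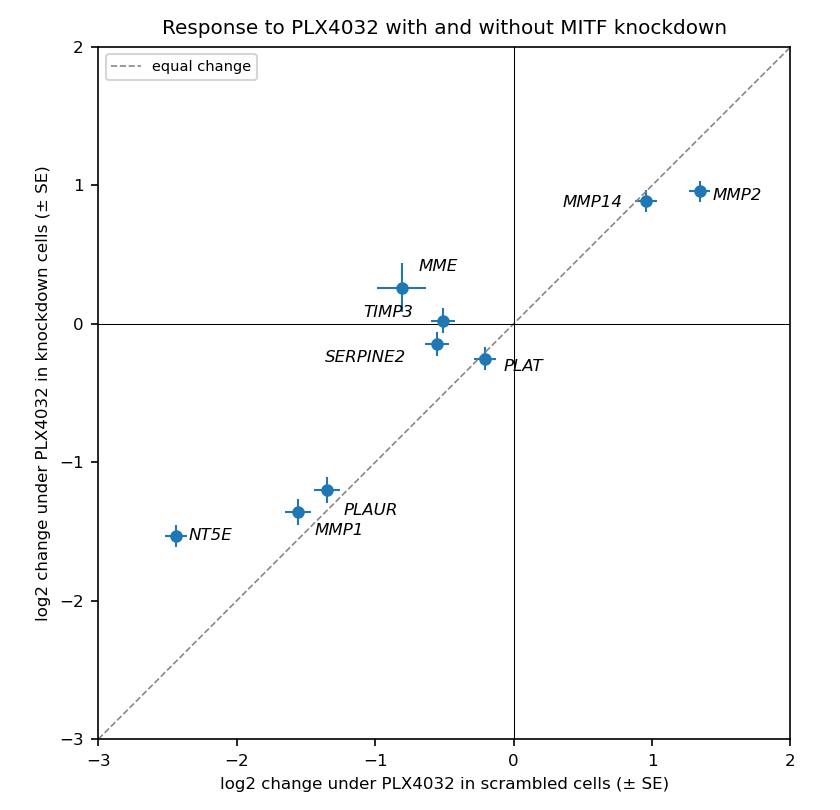
Log2 change under PLX4032 in knockdown cells (y axis) against that in scrambled cells (x axis) for the 9 genes, with SE as bars and a dashed line of equal change. PLAT, MMP1, PLAUR and MMP14 lie near the line, and MME, NT5E, TIMP3 and SERPINE2 lie above it. MME was dim in knockdown cells, which left little room for a fall there.

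The other genes of these enzyme systems were counted in 10 lists, first on MITF knockdown in DMSO, where 14.4% of all genes were higher and 18.8% lower. These lists were also chosen with earlier results of these data known, so their counts are a description. Of 19 other matrix metalloproteinase genes 6 rose and 1 fell, with a median of 0.15: the membrane-type genes MMP15 and MMP16 rose by 1.78 ± 0.078 (3.44-fold, adjusted p = 7.31e-08) and 1.19 ± 0.085 (adjusted p = 2.21e-06), and the collagenase MMP8 fell by 0.77 ± 0.084 (adjusted p = 4.67e-05). Without shMITF DMSO array B or scrambled DMSO array B, 3 rose. Of 9 metalloproteinase inhibitors and regulators 4 rose and 2 fell (1 fell without shMITF DMSO array B or scrambled DMSO array A), with a median of 0.20. Among them the broad protease trap A2M rose by 1.35 ± 0.085 (adjusted p = 8.85e-07), and the proprotein convertase PCSK6 fell by 0.90 ± 0.086 (adjusted p = 1.85e-05). Of 19 other protease inhibitors 8 rose and 2 fell, with a median of 0.26. SERPINA3, which inhibits chymotrypsin-like proteases, rose by 2.09 ± 0.096 (4.26-fold, adjusted p = 9.74e-08), and SERPINF1, an antiangiogenic serpin that does not inhibit proteases, fell by 1.76 ± 0.10 (3.39-fold lower, adjusted p = 4.50e-07). Without shMITF DMSO array A or scrambled DMSO array B, 5 of this list rose, and without shMITF DMSO array B or scrambled DMSO array B, 1 fell.

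The plasminogen system had 3 of 10 genes higher and 2 lower on knockdown in DMSO, with a median of 0.14; the matrix protein VTN rose by 1.07 ± 0.094 (adjusted p = 9.07e-06) and the clearance receptor LRP1 by 0.63 ± 0.084 (adjusted p = 0.000193). In every fit that left out 1 array the number lower was 0 or 1. Of 24 ADAM and ADAMTS genes 8 rose and 1 fell, with a median of 0.25, and the aggrecan- and versican-cleaving ADAMTS9 and ADAMTS1 rose by 2.65 ± 0.082 (adjusted p = 9.43e-09) and 2.37 ± 0.10 (5.15-fold, adjusted p = 6.64e-08). The scrambled DMSO mean of ADAMTS9, 4.52, lay under the first quartile of those arrays, where signal over background is unknown. There 5 rose without shMITF DMSO array A or scrambled DMSO array B, and 0 fell without shMITF DMSO array B or scrambled DMSO array B. Of 18 other cell-surface peptidases 8 rose and 1 fell, with a median of 0.27; the serine protease PRSS23 rose by 1.14 ± 0.086 (adjusted p = 3.19e-06) and the dipeptidyl peptidase FAP fell by 0.84 ± 0.081 (adjusted p = 1.88e-05). Of 12 lysosomal cathepsins 4 rose and 2 fell, with a median of 0.09, CTSF rising by 0.85 ± 0.089 (adjusted p = 3.59e-05).

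Around NT5E, 4 of 16 other nucleotide ectoenzymes rose on knockdown in DMSO and 1 fell, with a median of 0.17; the phosphatase ACP3, which like NT5E can make adenosine from AMP, rose by 1.56 ± 0.11 (2.95-fold, adjusted p = 2.10e-06). Among 9 adenosine receptors and nucleoside transporters 1 rose and 1 fell, with a median of -0.01. The equilibrative transporter SLC29A1 fell by 1.45 ± 0.081 (2.72-fold lower, adjusted p = 3.83e-07). The adenosine receptor ADORA2B rose by 0.48 ± 0.16 (adjusted p = 0.0387), a call lost without shMITF DMSO array B, scrambled DMSO array B or either scrambled PLX4032 array (0.24 to 0.48, adjusted p 0.0612 to 0.296), and the number higher was 2 without either shMITF PLX4032 array. The ADORA2B call was also lost with arrays centred on their median (limma adjusted p = 0.0614), quantile normalization repeated (0.0825) or all probe sets tested (0.120). Of 12 AP-1 and ETS factor genes, which encode regulators of many metalloproteinase promoters, 5 rose and 2 fell, with a median of 0.06. FOS rose by 1.34 ± 0.11 (adjusted p = 6.93e-06), and ETS1 fell by 1.64 ± 0.079 (3.12-fold lower, adjusted p = 1.46e-07).

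Under PLX4032 in scrambled cells, where 17.3% of all genes were higher and 16.8% lower, 4 of the 19 other metalloproteinases rose and 1 fell, with a median of 0.06; MMP17 rose by 0.74 ± 0.081 (adjusted p = 3.80e-05) and MMP16 fell by 1.15 ± 0.085 (2.21-fold lower, adjusted p = 2.26e-06). Of the 9 inhibitors and regulators 3 rose and 1 fell, with a median of 0.12: TIMP2, which also takes part in pro-MMP2 activation by MMP14, rose by 0.68 ± 0.087 (adjusted p = 0.000114), and the membrane-anchored inhibitor RECK by 0.54 ± 0.088 (adjusted p = 0.000608). Other protease inhibitors had 2 higher and 3 lower of 19, with SERPINF1 rising by 1.85 ± 0.10 (3.59-fold, adjusted p = 2.71e-07) and SERPINA3 changing by -1.18 ± 0.096 (adjusted p = 4.13e-06). The number higher was 1 without either shMITF DMSO array or scrambled DMSO array B. Of the 10 plasminogen genes 4 rose and 1 fell, with a median of 0.18; LRP1 rose by 0.73 ± 0.084 (adjusted p = 5.71e-05), and ENO1, a glycolytic enzyme that also binds plasminogen, fell by 0.52 ± 0.084 (adjusted p = 0.000582). Of these 1 rose without scrambled DMSO array A or scrambled PLX4032 array A, and 2 without either shMITF DMSO array.

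ADAM and ADAMTS genes split 4 higher and 3 lower of 24 under PLX4032 in scrambled cells, with a median of 0.10. With quantile normalization repeated, arrays centred on their median or a trended and robust prior, 2 were higher. With all probe sets tested 1 was higher. ADAMTS1 fell by 2.77 ± 0.10 (6.81-fold lower, adjusted p = 1.67e-08) and the sheddase ADAM10 rose by 0.46 ± 0.10 (adjusted p = 0.00398). The number higher was 7 without either shMITF PLX4032 array and 1 without scrambled DMSO array B or either scrambled PLX4032 array. Of 18 surface peptidases 4 rose and 2 fell (1 fell without scrambled PLX4032 array B), with a median of 0.01; carboxypeptidase CPM rose by 1.57 ± 0.098 (2.98-fold, adjusted p = 6.48e-07) and the endothelin-converting enzyme ECE1, of the same family as MME, fell by 0.88 ± 0.080 (adjusted p = 9.63e-06). Cathepsins had 5 higher and 1 lower of 12, and 8 higher with quantile normalization repeated. The median of the 12 cathepsins was 0.20, and CTSF led them at 1.85 ± 0.089 (3.59-fold, adjusted p = 1.04e-07). Of these 3 rose without scrambled DMSO array A or scrambled PLX4032 array B, and 0 fell without scrambled DMSO array B.

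Nucleotide ectoenzymes had 1 higher and 4 lower of 16 under PLX4032 in scrambled cells, with a median of 0.07: ENPP2 (autotaxin), which makes lysophosphatidic acid, rose by 2.13 ± 0.12 (adjusted p = 3.05e-07) over a dim scrambled DMSO mean of 4.77, ART3, of the ADP-ribosyltransferase family, fell by 2.57 ± 0.14 (5.93-fold lower, adjusted p = 2.90e-07), and adenosine deaminase, ADA, fell by 0.43 ± 0.096 (adjusted p = 0.00511). The ADA call was lost without scrambled PLX4032 array B (-0.33, adjusted p = 0.0556), where 2 of the list fell, and 2 rose without either scrambled DMSO array or scrambled PLX4032 array A. Adenosine receptors and nucleoside transporters had 1 higher and 4 lower of 9, with a median of -0.05 and SLC29A1 changing by -0.94 ± 0.081 (adjusted p = 5.86e-06). Of these 2 fell without scrambled DMSO array A and 1 without scrambled PLX4032 array B. AP-1 and ETS factors had 3 higher and 5 lower of 12, with a median of -0.08. ETV4 fell by 3.96 ± 0.089 (15.5-fold lower, adjusted p = 7.63e-10), ETV1 fell by 2.41 ± 0.095 (adjusted p = 2.77e-08), and JUN rose by 2.29 ± 0.094 (4.88-fold, adjusted p = 4.02e-08).

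**Figure D5:**
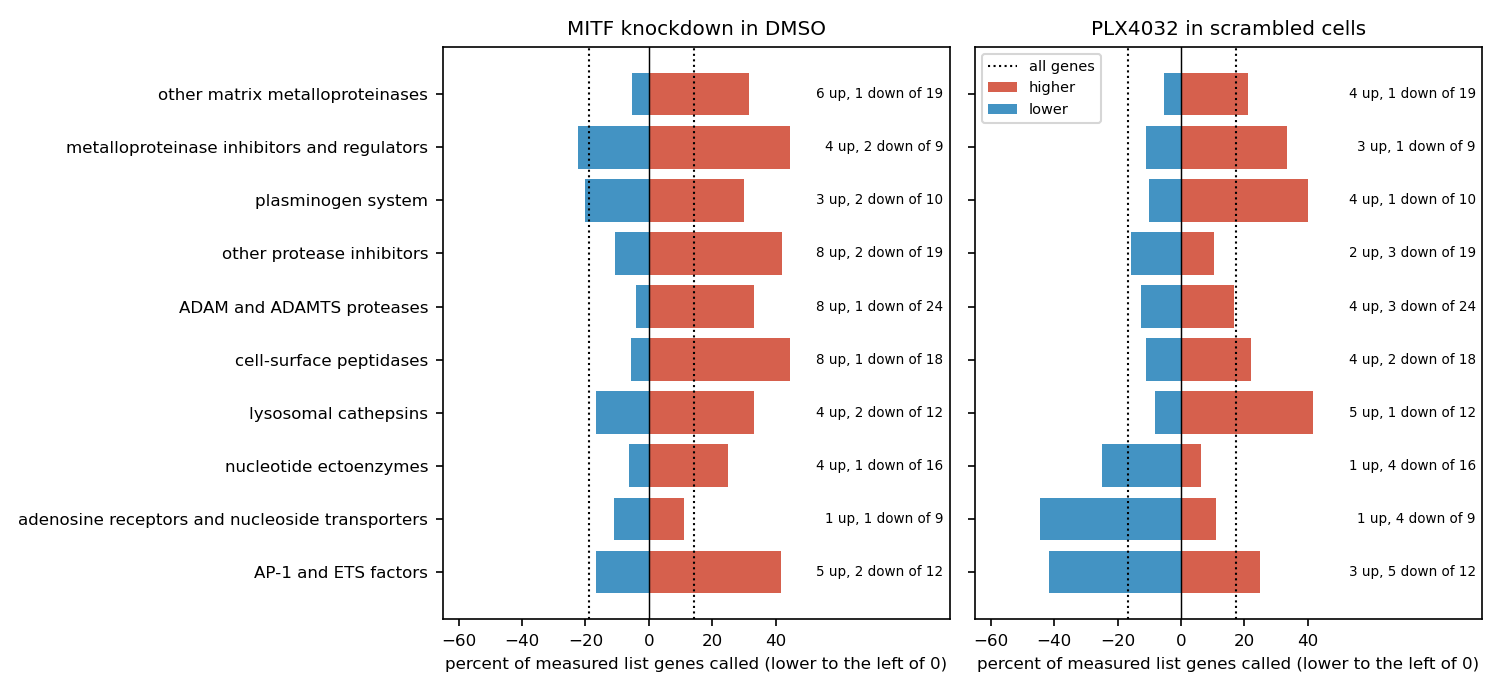
Percent of the measured genes of 10 lists (y axis) called higher (right of 0) or lower (left of 0) on MITF knockdown (in DMSO) and under the drug (in scrambled cells), with the counts printed beside the bars and dotted lines for all 18404 genes. On knockdown the bars to the right pass the dotted line at 14.4% in 9 lists, the exception being adenosine receptors and nucleoside transporters. The lists were chosen with earlier results of these data known. Without the dimmest genes, 3 other metalloproteinases, 4 ADAM and ADAMTS genes and 4 cathepsins were higher on knockdown. Among other protease inhibitors and surface peptidases 5 each were higher there. That filter shortened the lists to lengths not given here, so these counts are not set against the dotted line. With quantile normalization repeated the counts of these lists were 4, 8, 4, 8 and 7, against 6, 8, 4, 8 and 8 in the main fit.

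Further relatives of the 9 genes, named for the size of their called change within a list, moved on knockdown under PLX4032. MMP15 rose by 2.46 ± 0.078 (5.51-fold, limma adjusted p = 4.42e-09), PCSK5, a convertase that processes precursor proteins, by 1.91 ± 0.11 (3.76-fold, adjusted p = 3.76e-07), SERPINA3 by 3.05 ± 0.096 (8.28-fold, adjusted p = 4.27e-09) and ADAM19 by 2.38 ± 0.091 (5.19-fold, adjusted p = 1.54e-08). SERPINF1 fell by 2.95 ± 0.10 (7.71-fold lower, adjusted p = 7.68e-09) and MMP8 fell by 1.45 ± 0.084 (2.74-fold lower, adjusted p = 2.97e-07). Under PLX4032 in knockdown cells MMP17 rose by 1.27 ± 0.081 (2.42-fold, adjusted p = 4.73e-07), while ADAMTS9 fell by 2.80 ± 0.082 (adjusted p = 2.66e-09) to a dim mean of 4.38 and ACP3 fell by 1.96 ± 0.11 (3.90-fold lower, adjusted p = 1.89e-07).

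For the 7 of the 9 genes whose group means spanned at least 1 log2 unit, the genes with the most similar profile were found by the root mean square difference over the 8 arrays after each gene was centred on its mean. The 8 arrays fall in 4 groups and share hairpin and drug, so the values describe these arrays only. TUBA1A (0.0567) and AAMDC (0.059) came closest to MMP2, PLEKHH2 (0.058) and NOLC1 (0.0891) to MMP1, PDK2 (0.0634) and GABARAPL1 (0.0643) to MMP14, COL4A2 (0.099) and PLA1A (0.1037) to PLAT, and MAML3 (0.1129) and HEG1 (0.1172) to PLAUR. No gene came as close to NT5E, whose nearest were ART3 (0.2902) and NR4A2 (0.2911), or to MME, with BAAT (0.5181) and AHNAK2 (0.5418). The group means of NT5E spanned 4.01 log2 units and those of MME 3.40, against 1.04 to 2.26 for the other 5. The root mean square difference tends to grow with this span, so it does not make the shape of either profile unusual. Pearson correlations with NT5E were 0.9796 for ART3 and 0.9819 for NR4A2, and that of MAML3 with PLAUR was 0.9907. With MME they were 0.9668 for BAAT and 0.9458 for AHNAK2.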

How the data were processed

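The authors deposited 1 log2 intensity per probe set and array, made with RMA (background correction, quantile normalization and probe summary), per the submitters' processing notes, which give no version. RMA makes the probe distributions of the arrays alike, so most of a shift of all genes one way would be removed (first quartiles of the gene values still ran over 4.57 to 4.79), and changes of dim and very bright probe sets are compressed. Of 32321 probe sets, 19158 carried exactly 1 symbol in the platform annotation, 1388 several and 11775 none. Where a gene had several, as for 637 genes, the one with the highest mean over 8 arrays was used, which left 18404 genes with no filter on low values.

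From these values limma 3.58.1 (R 4.3.3; lmFit, eBayes) fitted a mean per group over all 8 arrays, and 6 contrasts were tested two-sided with Benjamini-Hochberg adjustment at 0.05. The fit had 4 residual and 6.73 prior degrees of freedom. On simulated data (18404 genes, knockdown in DMSO) it called 100% of 100 genes changed by 1 log2 unit and 77% of 100 changed by 0.5, with 6 false calls. Only these genes were changed there, with independent noise on each array, while 33.2% of all genes were called in the data. The recovery and the false calls thus do not carry over to these arrays.

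The 9 genes and the 10 pathway and 5 marker lists were chosen with earlier results of these data known. Named beside them are MITF and DUSP6 as checks of the labels, up to 3 called genes of largest change per list and contrast, and the 3 nearest profiles per gene. Of 194 list entries 181 were measured. MME and NT5E were left out of all tests because they were chosen by their change. Precision is limited by having 2 arrays per group, with a median SE of 0.0939 for a change and 0.133 for the interaction. Promoter windows were read from a RefSeq table on GRCh38.p14.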

Additional observations from a re-analysis of the deposited data

Results flagged for a closer look

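The PLX4032 change in knockdown cells was compared with that in scrambled cells by the limma interaction over all genes. It called 11.8% of all genes, 6.97% higher and 4.85% lower. Of each list, at most the 3 called genes of largest change are named below. More were called among other metalloproteinases (5 higher and 1 lower of 19), ADAM and ADAMTS genes (4 and 2 of 24) and AP-1 and ETS factors (4 and 2 of 12). The values are the log2 change in knockdown cells minus that in scrambled cells, and a negative one can mean a smaller rise or a deeper fall. Among the 9 genes of the report they were TIMP3 (0.53) and MMP2 (-0.39), with the limits given there.

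Among the metalloproteinases and their regulators the largest called differences were those of MMP15 (0.68), MMP16 (0.67), MMP8 (-0.68), PCSK5 (1.10), PCSK6 (0.68) and A2M (-0.62). Among plasminogen genes and other inhibitors they were those of VTN (0.52), SERPINA3 (0.96), TFPI (0.61) and SERPINF1 (-1.18). ADAM19 (1.48), ADAMTS6 (-1.67) and ADAMTS9 (-2.30) differed among the ADAM genes. Both ADAMTS genes were dim in scrambled cells: ADAMTS9 averaged 4.02 in scrambled PLX4032 and 4.52 in scrambled DMSO cells, and ADAMTS6 4.28 in scrambled DMSO cells, under the first quartiles of those arrays. There was little room for a fall there, so no difference in response is read from these values.

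Surface peptidases and cathepsins gave KEL (0.82), ECE1 (0.44), CPM (-1.16), CTSL (-0.51) and CTSF (-0.89). KEL was dim in scrambled DMSO cells, with a mean of 4.31 under the first quartiles of those arrays. Signal over background is unknown there, so no difference in response is read from the KEL value. Around NT5E, ART3 (1.76), ACP3 (-1.99), ENPP2 (-1.42), SLC29A1 (0.58) and SLC29A3 (-0.44) differed: ART3 fell by 0.81 under PLX4032 in knockdown cells and fell by 2.57 in scrambled cells, and ENPP2 rose by 0.71 in knockdown cells and by 2.13 in scrambled cells, over a dim scrambled DMSO mean of 4.77. Of the AP-1 and ETS factors, FOSL2 (1.56), ETV1 (1.25) and ETV5 (-1.30) differed.

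The calls of VTN, TFPI, ECE1, CTSL and SLC29A3 were lost when 1 of several arrays was left out. For VTN the adjusted p was then 0.0548 to 0.103, for TFPI 0.0631 to 0.148, for ECE1 0.0660 to 0.122, for CTSL 0.0543 to 0.0678 and for SLC29A3 0.0613 to 0.108. Groups of 2 arrays are too small for a check of single arrays that lie far from the rest.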

How the results depend on the processing

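Of 42 tested changes (7 genes in 6 comparisons), 32 kept their call under all 16 alternative fits, 8 that left out 1 array and 8 others, and 10 lost or gained it in at least 1. No change that passed in any fit turned its direction, while 5 that passed in none lay on both sides of 0. Leaving out 1 array gave 3 to 4 genes called for knockdown in DMSO, 4 to 4 for knockdown in PLX4032, 6 to 6 for PLX4032 in scrambled cells, 4 to 5 for PLX4032 in knockdown cells and for both perturbations, and 0 to 1 for the interaction, against 2 with all arrays. The interaction count was also 1 with the replicate block, 1 with the mean of a gene's probe sets and 0 with all probe sets tested. MMP2 then read adjusted p = 0.0550 with the block and 0.104 with all probe sets, and TIMP3 0.0719 with all probe sets. With all probe sets tested MMP1 on knockdown in DMSO (0.0653), PLAT under PLX4032 in knockdown cells (0.0686) and PLAUR with both perturbations (0.0580) also missed the threshold. PLAUR there missed it with repeated quantile normalization (0.0606) and with only the arrays of its 2 groups (0.0675).

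The letters A and B are not said to pair samples: the differences A minus B correlated between groups at -0.094 to 0.3289. Over all genes the interaction called 2176, and 1278 to 2132 with 1 array left out (1158 with all probe sets tested). A filter that left out the dimmest 40% of genes kept 11042 genes and all 9 described here. Dim levels, as of MME in knockdown cells, have an unknown signal over background.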
